A study of Mus musculus with 14 samples.

Results

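The BMI1 sites of mouse heart cells were compared after the herbicide paraquat and after its solvent, phosphate-buffered saline (PBS). Members were taken by antibody and treatment: all 16698 peaks in the 6 BMI1 chromatin immunoprecipitation (ChIP-seq) peak lists, of 39832 peaks in the 12 lists of the series. The 3 Damage libraries held 93 of them and the 3 Homeostasis libraries 16605. Cells were the Sca1+CD45- fraction of hearts of C57BL/6 mice aged 6 to 8 weeks, enriched by magnetic sorting. In the Damage group the mice received 1 intraperitoneal injection of 20 mg/kg paraquat in PBS; in the Homeostasis group they received PBS alone. The labels also describe culture in 3% O2 with growth factors and do not say whether the cells used for ChIP had been cultured. The time from injection to harvest is not stated. Nor is it stated that each replicate is its own group of mice, and the p-values below therefore cover only the spread between these libraries, which may be technical. The lists give positions on GRCm38 with a score of 1 for every peak; depth is unknown, and expression of the sorted cells' defining markers could not be looked at in them. The title of the study asks how BMI1 functions in the redox-dependent fate of cardiac progenitor cells, and the comparison here is of where BMI1 peaks were called after an oxidative insult.

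BMI1 (PCGF4) is a RING finger subunit of Polycomb repressive complex 1, which ubiquitinates histone H2A together with RING1A or RING1B and helps to keep developmental genes silent. A well-known target is Cdkn2a, the locus of the p16 and p19 tumour suppressors, and HOX genes and other homeobox genes are classic Polycomb targets. BMI1 has also been linked to the cell's handling of reactive oxygen species and to repair of DNA breaks. Paraquat undergoes redox cycling in cells and produces superoxide. Transfer RNA (tRNA) genes and 5S ribosomal RNA genes, where some of the Homeostasis peaks described here lay, are transcribed by RNA polymerase III; tRNA genes carry an internal promoter with an A box and a B box.

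Few promoters held a BMI1 peak. Of 32851 promoter windows in RefSeq (GRCm38.p6), each running from 250 bases before to 50 bases after a gene's start, 20 overlapped a peak of any Homeostasis library, 10 overlapped peaks of 2 or more and 6 of all 3. These windows took 0.230% of Homeostasis peaks on average and 0 of the 93 Damage peaks, a number of peaks at which that share could not be seen. The 4 windows with the longest stretch under Homeostasis peaks are printed to show the sequence under these lost sites; they are not typical, since 12 of the 4471 regions lost after paraquat (0.268%; classes defined further on) lay in a promoter window. Each is the 250 bases before the start, 5′ to 3′ on the gene's strand, and capitals mark the bases under peaks of 2 or more Homeostasis libraries.
Gm46404, minus strand, chr13:23445972-23446221: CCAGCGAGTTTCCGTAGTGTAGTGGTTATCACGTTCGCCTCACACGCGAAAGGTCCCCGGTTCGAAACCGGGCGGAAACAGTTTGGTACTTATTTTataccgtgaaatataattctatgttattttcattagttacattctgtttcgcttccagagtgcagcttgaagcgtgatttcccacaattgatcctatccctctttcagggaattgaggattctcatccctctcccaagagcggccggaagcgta
Polr3e, plus strand, chr7:120917528-120917777: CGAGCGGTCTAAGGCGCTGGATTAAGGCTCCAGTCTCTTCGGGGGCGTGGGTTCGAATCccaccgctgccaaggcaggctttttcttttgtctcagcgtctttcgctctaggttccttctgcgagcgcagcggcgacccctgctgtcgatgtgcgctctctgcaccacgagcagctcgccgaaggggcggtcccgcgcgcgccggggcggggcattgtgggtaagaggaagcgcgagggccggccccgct
Tpcn2, minus strand, chr7:145284012-145284261: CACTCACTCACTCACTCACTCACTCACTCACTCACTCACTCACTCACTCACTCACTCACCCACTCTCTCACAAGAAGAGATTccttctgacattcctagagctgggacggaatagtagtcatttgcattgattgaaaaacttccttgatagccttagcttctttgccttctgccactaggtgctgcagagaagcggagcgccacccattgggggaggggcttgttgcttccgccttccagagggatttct
Lilr4b, plus strand, chr10:51480362-51480611: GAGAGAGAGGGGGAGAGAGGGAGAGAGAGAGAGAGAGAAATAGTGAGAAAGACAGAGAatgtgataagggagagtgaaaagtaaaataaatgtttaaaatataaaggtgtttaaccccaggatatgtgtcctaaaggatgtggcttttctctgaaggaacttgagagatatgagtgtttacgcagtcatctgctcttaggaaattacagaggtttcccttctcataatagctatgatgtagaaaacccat

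The capitals span 96 bases before Gm46404, a predicted gene, and 59 bases before Polr3e, which encodes an RNA polymerase III subunit. Both stretches lie on a tRNA gene, n-TVcac9 in the first and n-TLaag4 in the second. Both windows hold the core of the B box, searched as GGTTCGA on both strands, as do 299 of the 32851 windows (0.910%) and 2 of the 10 with peaks of 2 or more Homeostasis libraries. Before Tpcn2, a lysosomal ion channel gene, the 82 capitals run over 14 tandem copies of CACT, a run found on either strand in 1 of the 32851 windows (0.00304%). Before Lilr4b, an immune receptor gene, the 58 capitals run over 9 tandem copies of GA, a run found in 37 windows (0.113%), 1 of them with a Homeostasis peak. The other 2 windows with a peak in all 3 Homeostasis libraries were those of Gm46178 and Agbl5, where the peaks reached 18 bases and 1 base into the window. The motif matches describe letters and do not show a bound factor.

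After paraquat nearly all BMI1 peaks were missing from the lists. The Damage libraries held 19, 27 and 47 peaks and the Homeostasis libraries 5020, 7513 and 4072, means of 31.0 ± 14.4 and 5535 ± 1777 (SD, n = 3 each). The highest Damage count was far below the lowest Homeostasis count, so the groups did not overlap. On the scale of log10(peaks + 1) the difference was -2.25 with a standard error of 0.135, which is a factor of 179 on that scale. The peaks covered 1.92, 2.74 and 4.75 kb after paraquat and 509, 762 and 414 kb after PBS, means of 3.14 ± 1.46 and 561 ± 180 kb (SD, n = 3 each). On the scale of log10(kb + 1), where the added 1 kb understates the change of the short Damage lists, the difference was -2.14 with a standard error of 0.116, a factor of 137. In both measures the exact permutation test (two-sided, 3 libraries against 3) gave p = 0.100, the smallest value that 20 arrangements allow, and 0.167 after Benjamini-Hochberg adjustment over the 5 tests made. The design therefore could not reach 0.05. Nearly all peaks in every list had the same width, so covered length follows the number of peaks. The test of covered length is thus not separate evidence. The number of reads behind each list is unknown, and a missing peak means that none was called, not a measured loss of BMI1.

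Homeostasis libraries shared most of their peaks with each other. An overlap of 1 bp with a peak of another Homeostasis library was found for 3531 of 5020 peaks (70.3%, exact 95% binomial interval 69.1 to 71.6), 4283 of 7513 (57.0%, 55.9 to 58.1) and 3447 of 4072 (84.7%, 83.5 to 85.7), on average 70.7 ± 13.8% (SD, n = 3). Damage libraries shared fewer: 3 of 19 peaks (15.8%, 3.38 to 39.6), 7 of 27 (25.9%, 11.1 to 46.3) and 6 of 47 (12.8%, 4.83 to 25.7), on average 18.2 ± 6.89% (SD, n = 3). These shares depend on the length of the lists compared.

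**Figure D1:**
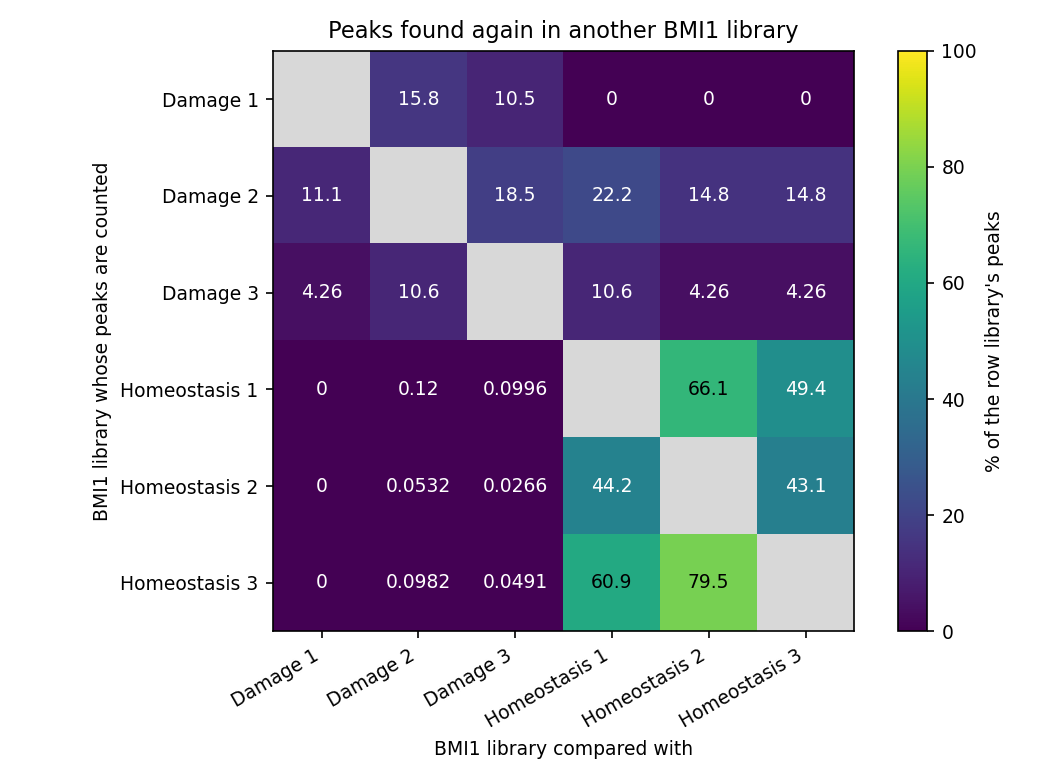
Percent of the peaks of each BMI1 library (row) that overlap a peak of another BMI1 library (column) by 1 bp or more; grey marks a library against itself. The 3 Homeostasis libraries share between 43.1 and 79.5% of their peaks pairwise, and Damage library 1 shares 0 with any of them.

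Of the 93 Damage peaks, 12 lay at a Homeostasis peak. They were 0 of 19 in Damage library 1 (exact 95% binomial interval up to 17.6%), 7 of 27 in library 2 (25.9%, 11.1 to 46.3) and 5 of 47 in library 3 (10.6%, 3.55 to 23.1), on average 12.2 ± 13.0% (SD, n = 3). This average rested on single libraries, being 18.3% without Damage library 1, 5.32% without Damage library 2 and 7.59% without Homeostasis library 1. Seen from the other side, 9 of 5020, 6 of 7513 and 6 of 4072 Homeostasis peaks were found in a Damage list, which is 0.179, 0.0799 and 0.147%. Without Damage library 2 the mean of these shares fell from 0.135 to 0.0584%. The peaks kept stood early in the Homeostasis lists as deposited, at a median row of 102 of 5020, 124 of 7513 and 79.0 of 4072; what sets the order of the rows is not stated.

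Damage peaks that missed a Homeostasis peak mostly lay far from one. The median gap from a Damage peak to the nearest Homeostasis peak was 62.2, 43.1 and 98.8 kb in the 3 libraries, overlapping peaks counted as 0, whereas the median gap from a Homeostasis peak to another Homeostasis library was 0 in all 3. Within 10 kb but without overlap lay 4 peaks: 1 on chromosome X in Damage library 1 at 184 bp, 1 in Erbb4 at 2.02 kb, 1 in Ctnna2 at 3.86 kb and 1 on an unplaced sequence at 9.91 kb. In Damage library 3, 23 of 47 peaks lay over 100 kb from any Homeostasis peak.

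**Figure D2:**
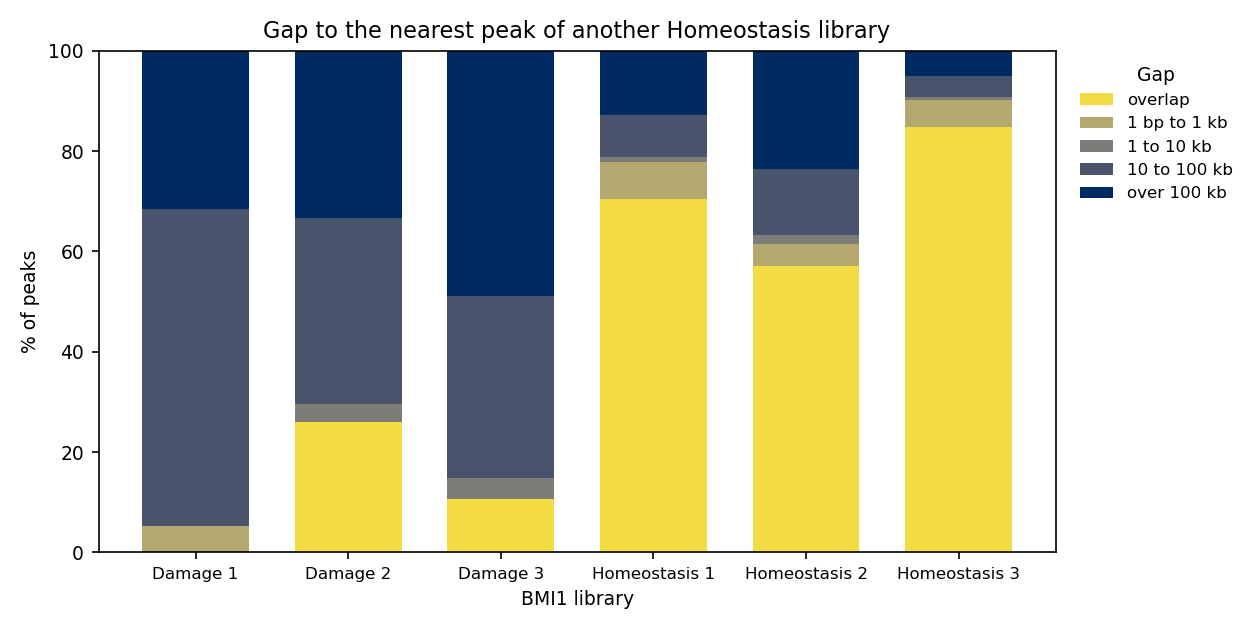
Percent of each BMI1 library's peaks by the gap to the nearest peak of a Homeostasis library, a Homeostasis library being compared with the other 2. Overlap makes up 57.1 to 84.7% of the Homeostasis bars and 0 to 25.9% of the Damage bars; peaks on sequences without a Homeostasis peak to compare with are left out.

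Merging peaks that touched across the 6 libraries gave 9896 regions. Of these, 4478 had a peak in 2 or more Homeostasis libraries and 2295 in all 3. By the classes used throughout, a region was lost with a peak in 2 or more Homeostasis and no Damage library, kept with 2 or more Homeostasis and 1 or more Damage libraries, and found only after damage with 2 or more Damage and no Homeostasis library. There were 4471 lost regions, 7 kept regions and 5 found only after damage. A further 69 regions were listed in a single Damage library and nowhere else. Without Homeostasis library 2 the lost regions numbered 2474, without Damage library 2 the kept regions numbered 2, and the regions found only after damage numbered 3, 2 and 3 without Damage library 1, 2 and 3 in turn.

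The 5 regions found only after damage included 1 protein-coding gene that no Homeostasis library marked. Drosha, which encodes the nuclear nuclease that starts microRNA processing, held a peak of each of the 3 Damage libraries within chr15:12873142-12873343. This region lay inside the gene body (chr15:12824804-12935291) and 258 kb from the nearest Homeostasis peak. It spans 202 bp and was joined through the peak of Damage library 1. The peaks of Damage libraries 2 and 3 there did not overlap each other, so they are not the same site by the 1 bp rule. The annotation used gives gene bounds without exons, so exon or intron is not stated here. The other region in all 3 Damage libraries lay on chromosome Y at chrY:90819506-90819621, 74.4 kb from the nearest protein-coding gene, Gm52481. Ptprn2, whose product is an inactive receptor phosphatase on secretory vesicles, held a peak in Damage libraries 1 and 2 at chr12:116678371-116678475, 28.8 kb from a Homeostasis peak; the gene itself is long (792 kb) and had 1, 2 and 1 peaks elsewhere in the Homeostasis libraries. Damage libraries 2 and 3 shared chr14:36855920-36856034, 18.9 kb from Ccser2, and chr3:4339018-4339122 on the 5S ribosomal RNA gene n-R5s194.

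Another 2 regions recurred after paraquat and were also listed in Homeostasis library 1, so they fell in no class. They were chr10:101390356-101390464, 291 kb from the glycosyltransferase gene Mgat4c, and chr9:102127873-102127987, on the 5S pseudogene n-R5s88 inside Ephb1, an ephrin receptor gene. Both had peaks in Damage libraries 2 and 3. Damage library 3 alone shared another region with Homeostasis library 1, chr1:12644741-12644891, 47.3 kb from Sulf1, which encodes an extracellular heparan sulfate sulfatase.

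The 7 kept regions each had a peak in a single Damage library. Of these, 4 were in all 3 Homeostasis libraries: chr13:21931137-21931252 on the methionine tRNA gene n-TMcat10 and chr18:56933924-56934041 in the long non-coding RNA gene Gm34632, both from Damage library 2, and chr16:56224701-56224875 in Impg2, a proteoglycan gene of the photoreceptor matrix, and chr6:10186362-10186475, 937 kb from the neurexophilin gene Nxph1, both from Damage library 3. The other 3 came from Damage library 2, among them chr13:23397033-23397142 on the isoleucine tRNA gene n-TIaat3 and chr7:38525505-38525607 in Gm5591. Damage library 1 kept none.

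**Figure D3:**
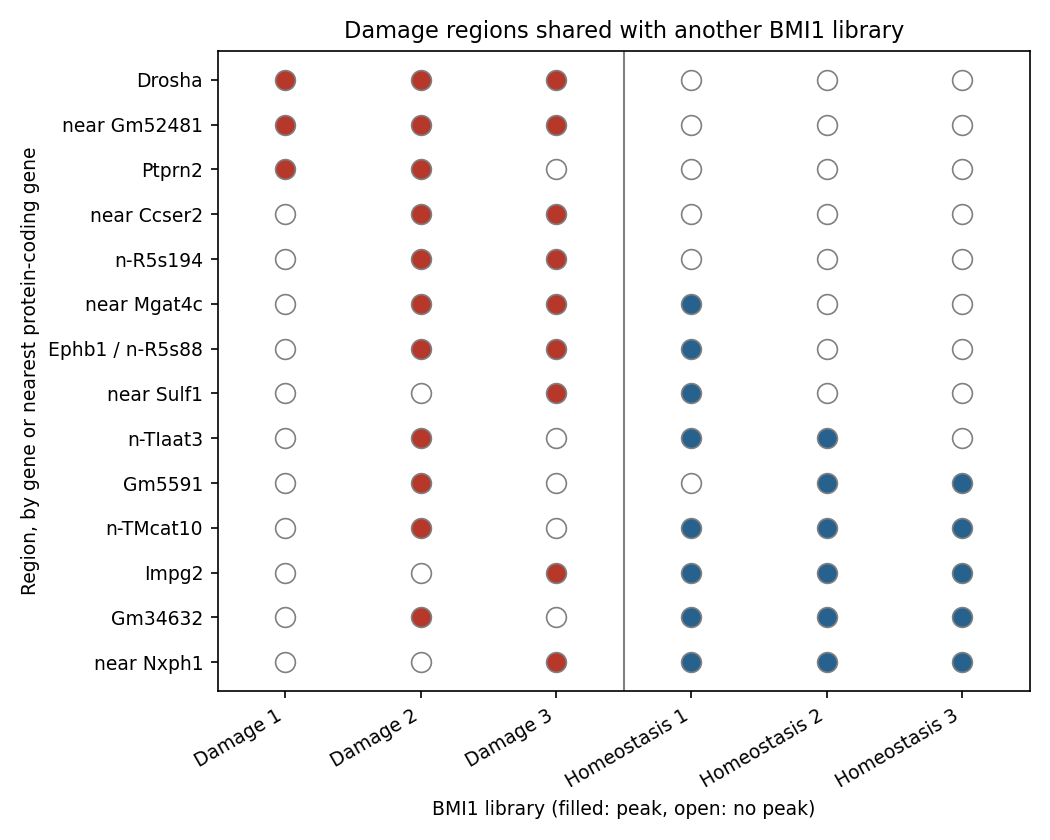
Of the 15 regions with a peak in 2 or more Damage libraries or with a Damage peak at a Homeostasis peak, 14 are shown (rows), by BMI1 library (columns). Filled circles mark a peak; Drosha and the region near Gm52481 are filled in all 3 Damage libraries and in no Homeostasis library.

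Homeostasis peaks lay mostly outside annotated genes, and Damage libraries differed among themselves. The share of peak centres in any annotated gene body was 36.8, 66.7 and 51.1% after paraquat and 43.7, 44.0 and 46.1% after PBS, means of 51.5 ± 14.9% and 44.6 ± 1.27% (SD, n = 3). The difference of 6.91 points (standard error 8.64) was within the spread of the Damage libraries (exact permutation test, p = 0.600, adjusted 0.600) and was -0.662 points without Damage library 2. Protein-coding gene bodies held 34.0 ± 12.2% and 32.9 ± 0.744% of peaks, and long non-coding RNA genes 4.41 ± 0.791% and 9.52 ± 0.236% (SD, n = 3), the former from 1, 1 and 2 peaks only. Within 1 kb of an annotated start lay 0 of the 93 Damage peaks, which allows a share of up to 3.23%, and 2.27 ± 0.461% of Homeostasis peaks (SD, n = 3), so a difference was not detectable at this number of peaks. Peaks covered no microRNA hairpin in any of the 6 lists.

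**Figure D4:**
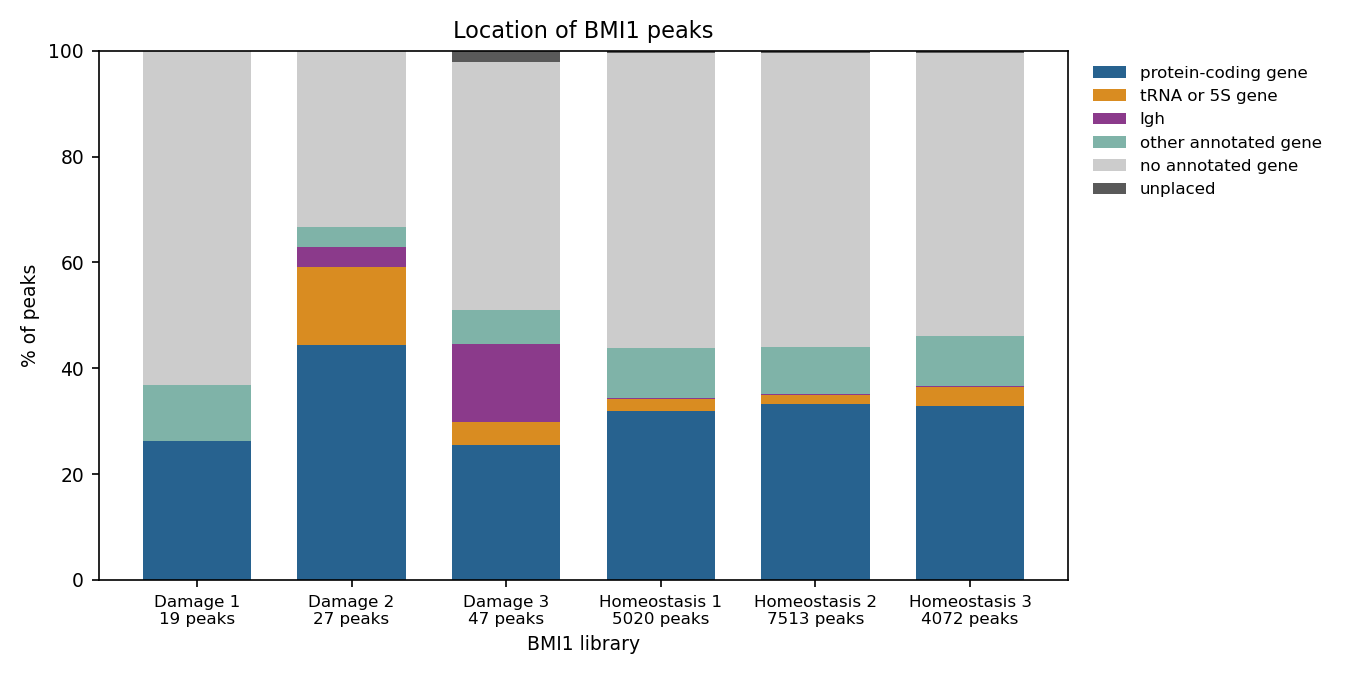
Percent of each BMI1 library's peaks by location, each peak counted once in the first class that held it. A sequence not placed on a chromosome came first, then a tRNA or 5S gene, then a protein-coding gene body. The immunoglobulin heavy chain locus Igh, another annotated gene and no annotated gene followed in that order. The Homeostasis bars are alike, with 31.9 to 33.3% in protein-coding genes; the Damage bars rest on 19, 27 and 47 peaks and range from 25.5 to 44.4%.

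Many 5S genes and a smaller part of the tRNA genes carried Homeostasis peaks, although they made up a small part of the lost regions: 92 of 4471 (2.06%) lay on tRNA genes and 39 (0.872%) on 5S genes. Of the 7 kept regions, 2 (28.6%) lay on tRNA genes. Of 408 annotated tRNA genes, 94 (23.0%) had a peak in 2 or more Homeostasis libraries and 2 had one after paraquat, both of them among the 94. Of 69 5S genes and pseudogenes, 39 (56.5%) had a peak in 2 or more Homeostasis libraries and 2 had one after paraquat, neither of them among the 39. The megabase with the most regions of 2 or more Homeostasis libraries, on chromosome 8, held 45 between 123324754 and 123961600, of which 32 lay on 5S genes and 0 had a Damage peak. The tRNA clusters came next, with 11 regions on chromosome 1 (10 on tRNA genes, none in Damage) and 11 and 10 in 2 megabases of chromosome 13 (9 and 10 on tRNA genes, 1 of each with a Damage peak). These genes are near-identical repeats, so reads may have been placed on the wrong copy. As a share of peaks, tRNA and 5S genes took 0, 14.8 and 4.26% after paraquat and 2.27, 1.74 and 3.63% after PBS, means of 6.36 ± 7.63% and 2.55 ± 0.976% (SD, n = 3). The groups overlapped (difference 3.81 points, standard error 4.44; exact permutation test, p = 0.600, adjusted 0.600), and the difference was -0.422 points without Damage library 2.

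The sex chromosomes held a larger share of the few Damage peaks. It was 15.8, 11.1 and 10.6% after paraquat and 9.58, 7.05 and 6.58% after PBS, with means of 12.5 ± 2.85% and 7.74 ± 1.61% (SD, n = 3). The groups did not overlap, and the difference was 4.77 points with a standard error of 1.89 (exact permutation test, p = 0.100, the smallest possible; adjusted 0.167). The 3 Damage values stand for 3, 3 and 5 peaks, so they rest on few sites. In each library 1 of these peaks was the same Y region, chrY:90819506-90819621. Of the 4 X peaks in Damage library 3, 2 lay near each other, 137 and 181 kb from Asmt. On X alone the shares were 8.81 ± 1.58% and 4.08 ± 1.09%, and on Y 3.70 ± 1.57% and 3.66 ± 0.528% (SD, n = 3).

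The immunoglobulin heavy chain locus Igh, which is rearranged in B cells, held 0 of 19, 1 of 27 and 7 of 47 Damage peaks. In Damage library 3 that is 14.9% of peaks (exact 95% binomial interval 6.20 to 28.3), against 0.172 to 0.179% in the Homeostasis libraries (9, 13 and 7 peaks). The 8 Damage peaks in Igh were 37.5 to 211 kb from the nearest Homeostasis peak. Damage library 3 alone gave 7 of these 8.

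Counted by gene, a protein-coding gene was taken as marked by a peak in its body or within 5 kb. Of 21887 protein-coding genes, 1607 (7.34%) were marked in 2 or more Homeostasis libraries and 973 (4.45%) in all 3. The lost genes numbered 1591 (7.27%), the kept genes 16 (0.0731%), and 964 of the lost genes (4.40% of all) were marked in all 3 Homeostasis libraries. Just 1 gene, Drosha, was found only after damage (0.00457%). Without Homeostasis library 2 there were 1013 lost and 9 kept genes, and without Damage library 2 or 3 there were 10 kept genes in either case. Lost genes were long, with a median of 92.1 kb against 17.2 kb for all protein-coding genes, and kept genes longer still (501 kb). Since 1591 of the 1607 marked genes were lost, this length describes marked genes in general. The genes marked in all 3 Homeostasis libraries had a median of 110 kb. A gene counted as kept wherever in it the Damage peak lay, and the part played by length was not tested.

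The Damage lists marked 31 protein-coding genes (0.142%), 28 of them with the peak in the gene body. Of the 16 kept genes, only Ephb1, Impg2 and Gm5591 had the Damage peak at a Homeostasis peak. In the other 13 the Damage peak lay elsewhere in the gene. In Damage library 1 these were Pde10a, a phosphodiesterase gene, and Sorbs2, which encodes an adaptor of the actin cytoskeleton, with Ptprn2 shared with library 2. Damage library 2 added Prkg1 (cGMP-dependent kinase), Rnf220 (a ubiquitin ligase), Csmd3, Erbb4 (a neuregulin receptor) and Foxp2 (a forkhead transcription factor). Damage library 3 added Ablim1 (an actin-binding LIM protein), Ctnna2 (neuronal alpha-catenin), Pcdh15 (a protocadherin), Gm7592 and Rabgap1l. In these genes the gap from the Damage peak to the nearest Homeostasis peak ranged from 2.02 kb in Erbb4 to 392 kb in Csmd3. Within Prkg1, 4, 5 and 2 Homeostasis peaks and 1 Damage peak stood at different places in 1201 kb.

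A Damage peak in or within 5 kb of a gene without any Homeostasis peak was seen for 13 genes (0.0594% of all), including Drosha. The other 12 rested on a single Damage library. Damage library 1 gave Rab28, a small GTPase gene. Damage library 2 gave Snx9 (a sorting nexin), the olfactory receptor gene Olfr996, and 1 peak lying in both Pbrm1, a subunit of the PBAF chromatin remodeller, and Smim4. Damage library 3 gave Cnot4 (a ubiquitin ligase of the CCR4-NOT complex), Fbxl20 (an F-box protein), Fam122b, Tmem267, Vopp1, 1700001F09Rik and the vomeronasal receptor gene Vmn1r256. The peaks of Olfr996, Vmn1r256 and 1700001F09Rik lay outside the gene body, at 3.63, 1.02 and 4.51 kb. Peaks in Abcc4, a nucleotide and drug exporter, and Rttn, a centriole protein, came from Damage library 2 in genes marked by 1 Homeostasis library. None of the 13 genes, and neither of these, is in a gene list described here.

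Among the lost genes, 114 had 2 or more peaks in every Homeostasis library, and of the 25 with the most peaks per 100 kb of gene and flanks 23 are described here. Gas1, a Hedgehog co-receptor, stood first with 2, 3 and 2 peaks in the Homeostasis libraries and 0 in each Damage library (15.2 peaks per 100 kb by its lowest library). Its peaks lay outside the gene body, the closest centred 0.629 kb from the annotated start. Of those of the 25 genes whose start is in the promoter table, no other had a peak centre within 1 kb of it. Hhat, the Hedgehog acyltransferase gene, had 3 peaks in each Homeostasis library. Jarid2, which recruits and tunes Polycomb repressive complex 2, had 2, 2 and 3. Other regulators were Hes7 (a repressor of the segmentation clock; 2, 3 and 3 peaks), Lmx1b (a LIM homeodomain factor; 2, 2 and 2), Zbtb16 (a zinc finger repressor; 2, 3 and 2) and Arid5b (a chromatin-associated DNA-binding protein; 2, 3 and 2). The peaks of Lmx1b lay in 4 regions and those of Arid5b in 6, and in both genes 0 regions were shared by all 3 Homeostasis libraries.

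Of the signalling and metabolic genes among the 25, Ccbe1, needed for lymphatic growth, had 3, 4 and 3 Homeostasis peaks and Phactr2, a phosphatase regulator, 4, 3 and 3. Gfra2 (a neurturin co-receptor), Nlrp1a (an inflammasome sensor), Lars2 (mitochondrial leucyl-tRNA synthetase) and Hmgcll1 (an HMG-CoA lyase) had 2 in each. Lvrn, an aminopeptidase gene, Ranbp3l and Fam227b also had 2 in each. Tmprss11d, a serine protease gene, had 3, 2 and 2, Slc7a14, an amino acid transporter gene, and Frmpd3 2, 3 and 2, and Cfap20dc 3, 4 and 3. In 4 of the 25 the peaks lay partly or wholly on tRNA or 5S genes: all 6 in Ctc1, a telomere maintenance gene, all 6 in Vac14, a scaffold of phosphoinositide kinase, 5 of 8 in Hes7 and 3 of 9 in Dnah7b, a dynein gene. All 25 had 0 peaks in each Damage library, as the choice of genes required.

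**Figure D5:**
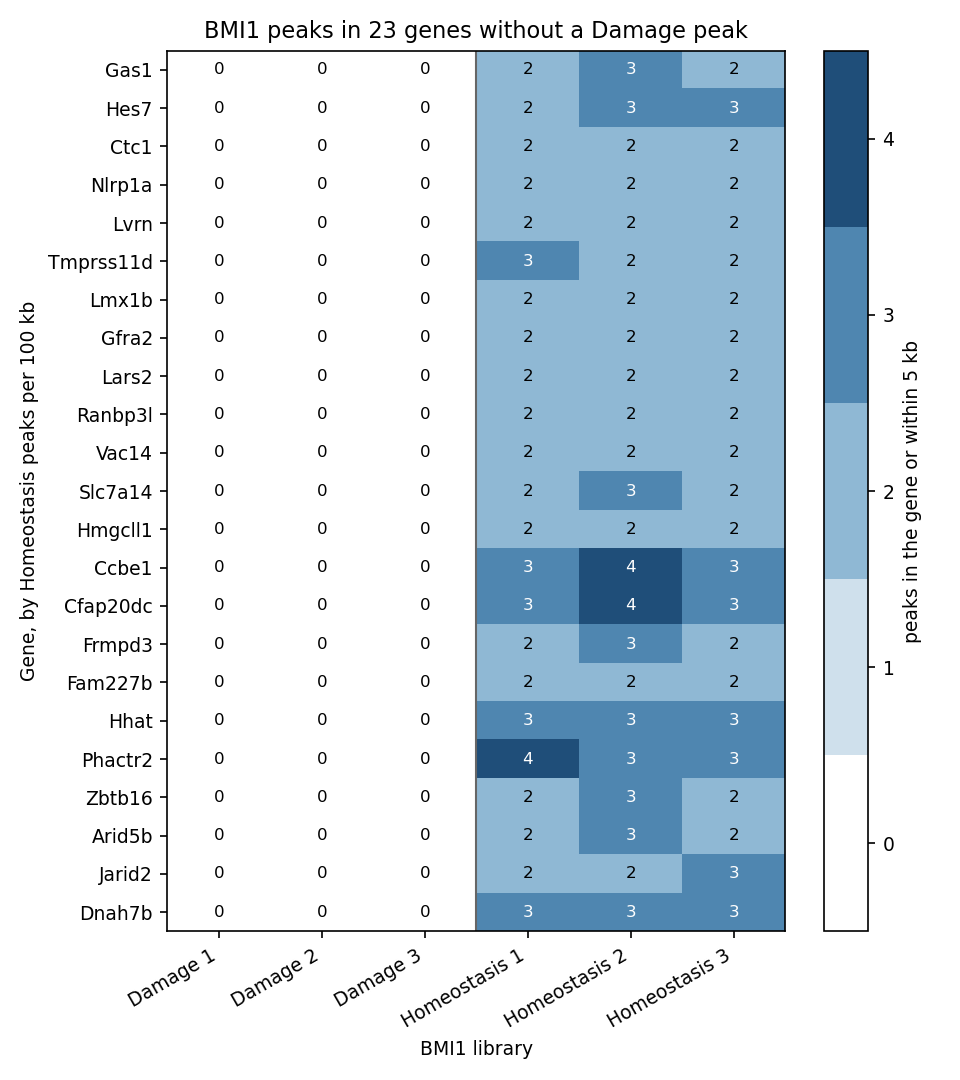
Number of BMI1 peaks in the gene body or within 5 kb (colour and number) for 23 of the 25 lost genes with the most Homeostasis peaks per 100 kb, ordered by that density, in each BMI1 library. Homeostasis counts run from 2 to 4; the 0 in every Damage column is part of the rule that chose the genes.

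Gene lists were read against the 7.27% of all protein-coding genes that were lost. The lists and genes were chosen with results of these data known, so the counts are a description. In all, 79 of 392 listed genes were lost and 5 were kept. Long adhesion and axon guidance genes made up most of both: 45 of 57 (78.9%) were lost and 5 were kept. Their median length was 1020 kb. Lsamp, a neuronal adhesion protein of the immunoglobulin family, had 8, 10 and 5 Homeostasis peaks, Robo1, the Slit receptor, 4, 8 and 7, Sgcz, a sarcoglycan, 5, 8 and 6, and Ctnna3, a catenin of cardiac cell junctions, 4, 8 and 5, all with 0 in each Damage library. The 5 kept were Ctnna2 (6, 5 and 4 Homeostasis peaks, 1 in Damage library 3), Pcdh15 (2, 5 and 3, 1 in library 3), Ephb1 (1 in each Homeostasis library, 1 in Damage libraries 2 and 3), Erbb4 (1, 3 and 0, 1 in library 2) and Csmd3 (0, 1 and 1, 1 in library 2).

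Of the Polycomb genes themselves, 2 of 34 (5.88%) were lost, Jarid2 and Ezh2, the methyltransferase of Polycomb repressive complex 2 (1 peak in each Homeostasis library). Pcgf5, a paralogue of BMI1, had 1 peak in Homeostasis library 2 alone, and Aebp2, a cofactor of that methyltransferase, none. Bmi1 had 0 peaks in all 6 libraries, and so did Cdkn2a. HOX genes were nearly empty: 1 of 39 (2.56%) was lost, Hoxb1, with 1 peak in Homeostasis libraries 1 and 2, whereas Hoxa10 and Hoxa11 had 0 in every list. Of 47 other developmental transcription factor genes, 4 (8.51%) were lost: Sox5, a SOX factor (4, 4 and 3 peaks in 954 kb), En2, Pax7 and Zic1. The lost shares of these last 2 lists, 2.56 and 8.51%, lay below and near the background of 7.27%. Both lists held short genes, with median lengths of 3.74 and 6.35 kb against 17.2 kb for all protein-coding genes. At that background few of 39 genes would be marked, so the low HOX share is not read as avoidance. The part played by length was not tested.

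Of genes that act on reactive oxygen species, 4 of 42 (9.52%) were lost. Ppargc1a, a coactivator of mitochondrial biogenesis, had 6, 8 and 5 Homeostasis peaks in 662 kb and 0 after paraquat. Sod3, the extracellular superoxide dismutase, had 1, 1 and 2 in 5.93 kb and its flanks, and Cat (catalase) and Por (cytochrome P450 reductase, a known electron donor to paraquat) had 1 in each Homeostasis library. Of 26 cell cycle and p53 genes, 2 (7.69%) were lost, the p53 inhibitor Mdm4 and the p53 relative Trp73, each with 1 peak in every Homeostasis library, whereas Ccnd1 and Ccnd2, which encode D-type cyclins, had none. Of 24 DNA damage genes, 2 (8.33%) were lost: Rad51b, a recombination factor (1 peak in each Homeostasis library), and Prkdc, the kinase of end joining (0, 1 and 1). Fanca and Trp53bp1, also repair genes, were marked in 1 Homeostasis library each. No member of these 3 lists had a Damage peak, which 0.142% of all protein-coding genes had, too few to resolve in lists of this length, and their lost shares lay within a few points of the background.

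Cardiac and mesoderm transcription factor genes were lost in 3 of 28 cases (10.7%): Mef2c and Meis1, with 1 peak in each Homeostasis library, and Wt1, an epicardial factor (0, 1 and 1); Eomes was marked in 1 library. Stromal and fibroblast genes were lost in 3 of 24 (12.5%): Dcn, a matrix proteoglycan, and the receptor Pdgfra with 1 peak in each Homeostasis library, and the collagen receptor Ddr2 (0, 2 and 1); Cd34 had none. Endothelial genes had a higher share, 7 of 22 (31.8%), among them Emcn, a surface sialomucin (3, 2 and 1 peaks), and the transcription factor Erg, the VEGF receptor Flt1 and the phosphatase Ptprb with 1 in each. Their median length was 44.4 kb, above the 17.2 kb of all genes. Of the lists with longer genes, adhesion and guidance (1020 kb) had 78.9% lost and DNA damage (52.3 kb) 8.33%. Whether length accounts for the endothelial share was not tested.

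Of the smooth muscle and pericyte genes, 3 of 14 (21.4%) were lost: Mylk, the myosin light chain kinase (2, 1 and 2), the tropomyosin Tpm2 (1 in each) and the myosin Myh11 (1, 1 and 0); Cald1 was marked in 1 library. Of the cardiomyocyte genes, 3 of 21 (14.3%) were lost: the calcium release channel Ryr2 (2, 2 and 1), the calcium channel Cacna1c (1, 2 and 0) and the light chain Myl3 (1, 0 and 1); Myh6 was marked in 1 library. Of 16 leukocyte genes, among them Adgre1, Cd14 and Cd3e, none had a peak in any library. Of all protein-coding genes 7.34% were marked in 2 or more Homeostasis libraries, a share too low for 16 genes to show an absence. No gene of these 6 lists had a Damage peak, against 0.142% of all protein-coding genes, a share that lists of this length cannot resolve. A peak is a call from a BMI1 ChIP library, and whether BMI1 was bound there was not tested. These counts give no measure of which cell types the samples held.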

How the data were processed

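BMI1 ChIP-seq peak lists of 6 libraries (3 Damage, 3 Homeostasis) were analysed. The submitters' processing notes name Bowtie2, HOMER 4.8 and GRCm38. The deposited lists give each peak's start, counted from 0 and printed here from 1, its end and a score that the authors' lists set to 1 for every peak. No source used here gives the peak calling settings, any use of the input libraries or the read depth; input libraries and the other antibodies were not analysed here.

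Samples were grouped by their labels. Overlap of 1 bp was required. Peaks and merged regions were placed on RefSeq gene bounds (GRCm38.p6), with 5 kb flanks for protein-coding genes, and on RefSeq promoter windows. All 392 listed gene symbols matched. Library values were compared by two-sided exact permutation tests, adjusted over 5 tests by the Benjamini-Hochberg method; regions and genes were counted. Intervals are exact binomial (Clopper-Pearson) at 95% and cover counting error only; the limit for a count of 0 is 3 counts. Named were regions in 2 or more Damage libraries, Damage peaks at a Homeostasis peak, genes with a Damage peak, 25 lost genes by peak density, up to 4 members of each list, Bmi1 and Cdkn2a; a few items this rule names are not reported here. Regions in genes and promoters printed outside that rule were chosen after their values were seen. The members and lists were chosen with earlier results of these data known. Python 3.11.15, numpy 2.4.6, pandas 2.3.3 and scipy 1.17.1 were used, and the counting and tests were tested on simulated data. Alternatives covered the overlap, consensus rule, gene window, merging, chromosomes, replicate block and each library left out.

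Replicate numbers were checked for pairing: over 2532 bins of 1 Mb, same-numbered Damage and Homeostasis libraries had correlations of deviations of -0.0336, 0.00979 and 0.000243. With 19, 27 and 47 Damage peaks over these bins, the check could not tell paired from unpaired libraries. Pairing is therefore unknown, and the numbers are used here only to name the libraries.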

Additional observations from a re-analysis of the deposited data

How the results depend on the processing

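Of 114 alternatives over 13 results, 92 were counted as the same, 20 moved the value and 2 reversed it. In the 43 alternatives with a permutation test, the same meant only a kept sign, since no p-value could reach the threshold. Of these, 41 kept the direction of the main value, but its size could change. Without Damage replicate 1 the difference was 14.2 points for gene bodies (main value 6.91) and 6.99 for tRNA and 5S genes (main value 3.81). The other alternatives were judged by limits on the value. The Damage minus Homeostasis share of peaks in gene bodies became -0.662 points and that on tRNA and 5S genes -0.422 points without Damage replicate 2. With 3 of 3 libraries required there were 2291 lost regions, 4 kept and 2 found only after damage, and 964 lost and 9 kept genes. With any library counted there were 9812 lost regions and 74 found only after damage. With 50 kb flanks there were 4326 lost genes, 34 kept and 2 found only after damage. Leaving out each library in turn gave factors from 146 to 226 on the scale of log10(peaks + 1) and from 116 to 165 on that of log10(kb + 1). The differences in share then ran from -0.662 to 14.2 points for gene bodies, -0.422 to 6.99 for tRNA and 5S genes and 3.14 to 5.71 for sex chromosomes. The share of Damage peaks at a Homeostasis peak ran from 5.32 to 18.3% and the reverse share from 0.0584 to 0.163%. Lost, kept and found-only regions ran from 2474 to 4476, 2 to 7 and 2 to 7, and genes from 1013 to 1597, 9 to 14 and 1 to 1. With the replicate block, signs of the 3 differences permuted, the factor of 179 had an exact permutation p of 0.250 (the smallest possible), as had covered length and the sex chromosomes, and p was 0.750 for gene bodies and for tRNA and 5S genes. Chosen after seeing the data, leaving out Igh, tRNA and 5S peaks gave a gene share difference of 2.06 points and X alone one of 4.73. A stricter peak score was not run, since the score is the same for every peak. For values that moved, the cause was not tested beyond the smaller number of libraries or wider window itself. The 93 Damage peaks limit every share given for that group.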

Other observations

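In Damage library 3, 3 peaks on chromosome 7 lay among vomeronasal receptor genes, 5.51 kb from Vmn1r122, 1.02 kb from Vmn1r256 and 23.4 kb from Vmn1r158. Another 2 peaks of that library lay on chromosome X, 137 and 181 kb from Asmt, which encodes an enzyme of melatonin synthesis. None of these 5 overlapped a peak of another BMI1 library; they were picked after their values were seen and the labels give no reason to group them.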
